A study of Mus musculus with 20 samples.

Results

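The inguinal subcutaneous fat of 20 female C57BL/6 mice, 8 weeks old and with no treatment, was compared between the estrous cycle stages with the higher and the lower mean serum estradiol. The high side held 10 mice, 5 at proestrus and 5 at metestrus, and the low side held 10 mice, 5 at estrus and 5 at diestrus, so that all 20 libraries of the study entered the comparison. Stages were read from vaginal smears, each mouse was used at 1 stage, and 1 library of polyadenylated RNA was made per mouse. The sides rest on the mean estradiol of each stage in the study's serum assay, not on the hormone level of each mouse, and metestrus-1 and diestrus-5 each had a serum estradiol on the other side of the median of the 20 mice. The stages follow each other as proestrus, estrus, metestrus and diestrus, so the sides alternate along the cycle and the comparison sets no single step of the cycle apart from another. A gene that follows estradiol alone and without delay would have both high stages on the same side of both low stages. The agreement of the stages within a side was therefore measured beside the difference between the sides. A delayed or lasting response need not show this order, and the timing of responses was not tested.

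Estradiol acts mainly through the estrogen receptor alpha, the product of Esr1, a nuclear receptor that binds a pair of short facing motifs in DNA and changes the transcription of nearby genes. In white fat it is known for its part in fat distribution and lipolysis. The inguinal pad of the female mouse also holds the ducts of the mammary gland, whose luminal cells are a classical estrogen target and answer with paracrine signals such as amphiregulin and with the progesterone receptor.

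Expression was given as FPKM, the fragments of a gene scaled to its transcript length and to the mapped total of the library. It was tested on log2(FPKM + 1), on which a gene near 0 FPKM shows a smaller change than its ratio. Of 35841 genes in the table, 13987 reached 1 FPKM in at least 5 libraries and were tested. Adipocyte genes were at high levels in every mouse (18 markers summed to 9942 to 20802 FPKM). The pads differed in the other tissue they carried. The summed FPKM of 22 lymphocyte markers ran from 10.8 to 432 on the high side and from 9.02 to 573 on the low side, and that of 15 skeletal muscle markers was 9471 in metestrus-3 and 16.5 to 495 in the other 19 mice. No marker of these lists was at 0 in every library. Such values cannot tell fewer cells of a type from less RNA per cell. Metestrus-3 stood apart by its muscle genes and proestrus-2, made from a second portion of that animal's fat, had the lowest weight of the 20 libraries when limma weighted each by its fit (0.361), and counts without both are given below.

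Between the sides 3 of 13987 genes passed the test at an adjusted p under 0.05 (0.0214%), namely Slc35e4, Dusp18 and Pdk4, and each was higher at the high-estradiol stages. None was lower. At an unadjusted p under 0.05 there were 1033 genes (7.39%), of which 440 were higher (3.15%) and 593 lower (4.24%), and this split was 244 higher and 782 lower when every library was scaled to the same total FPKM. In no gene did the 10 mice of the high side lie entirely above or below the 10 of the low side. Without metestrus-1 and diestrus-5, the mice whose own estradiol lay on the other side, 0 genes passed after adjustment and 449 were higher and 412 lower at an unadjusted p under 0.05. Without proestrus-2 and metestrus-3 there were 30 (15 higher and 15 lower), the 3 genes included.

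Of the 3 genes, 2 are neighbours on chromosome 11. Dusp18 lies at chr11:3895240-3901296 on the plus strand and Slc35e4 at chr11:3907021-3914664 on the minus strand (GRCm38, GENCODE M21), with 5724 bases between them. Pdk4 lies at chr6:5483351-5496309 on the minus strand. Their proximal promoters, the 250 bases before the transcription start, are shown because the comparison concerns a hormone whose receptor binds DNA (RefSeq, GRCm38.p6, 5′ to 3′ on the strand of the gene). Capitals mark a match to the core motif of the estrogen response element, GGTCA or its reverse complement TGACC.
Slc35e4 (chr11:3914665-3914914): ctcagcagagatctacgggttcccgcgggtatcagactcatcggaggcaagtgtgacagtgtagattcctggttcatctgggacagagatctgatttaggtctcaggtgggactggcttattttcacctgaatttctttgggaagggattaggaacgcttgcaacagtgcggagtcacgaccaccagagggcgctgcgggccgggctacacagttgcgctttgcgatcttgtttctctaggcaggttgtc
Dusp18 (chr11:3894990-3895239): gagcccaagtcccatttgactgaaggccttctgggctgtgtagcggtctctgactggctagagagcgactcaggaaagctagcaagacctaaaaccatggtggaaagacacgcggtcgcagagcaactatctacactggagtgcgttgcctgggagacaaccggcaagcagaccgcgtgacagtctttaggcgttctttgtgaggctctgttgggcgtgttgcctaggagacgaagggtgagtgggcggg
Pdk4 (chr6:5496279-5496528): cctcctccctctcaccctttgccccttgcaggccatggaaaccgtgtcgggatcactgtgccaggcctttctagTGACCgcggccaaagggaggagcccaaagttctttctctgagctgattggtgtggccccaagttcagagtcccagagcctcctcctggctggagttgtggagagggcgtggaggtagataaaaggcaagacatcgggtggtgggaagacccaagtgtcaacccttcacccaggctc
The Pdk4 promoter held 1 core motif, which starts at position -176 from the RefSeq start site, and those of Slc35e4 and Dusp18 held 0. The RefSeq start of Pdk4 lies inside the GENCODE M21 gene given above, so the end of its window overlaps that gene. At least 1 core motif, on either strand, occurs in 35.2% of the 32851 mouse promoters of this length, and the full element, GGTCA followed by any 3 bases and TGACC, which also counts as 2 core motifs, occurs in 21 of them (0.0639%). None of the 3 promoters held the full element within this window.

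Slc35e4 encodes a member of the solute carrier family that holds the nucleotide sugar transporters. Its level was 3.25, 3.15, 1.96, 2.77 and 2.64 FPKM in the 5 proestrus mice and 11.8, 7.37, 11.8, 9.76 and 9.51 FPKM in the 5 metestrus mice. In the estrus mice it was 4.44, 3.73, 2.26, 2.29 and 2.51 FPKM, and in the diestrus mice 1.98, 3.11, 2.52, 2.07 and 2.43 FPKM. All 5 metestrus mice lay above every other mouse, while the proestrus mice overlapped the low side, with proestrus-3 just below its lowest mouse. The mean was 2.34 times as high on the high side as on the low side (log2 difference 0.80 ± 0.11, SE, adjusted p = 0.0123). Between metestrus and proestrus, both on the high side, the difference was larger (log2 1.55, adjusted p = 3.57e-05).

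Dusp18, a dual specificity protein phosphatase, had the same shape. It was at 3.60, 3.86, 2.90, 3.08 and 3.28 FPKM at proestrus and at 8.90, 5.43, 8.29, 10.6 and 8.51 FPKM at metestrus. The estrus mice had 3.51, 3.52, 3.29, 4.16 and 4.02 FPKM and the diestrus mice 3.47, 2.90, 3.29, 2.89 and 3.48 FPKM. Again the 5 metestrus mice stood above the other 15, which overlapped one another. The log2 difference between the sides was 0.51 ± 0.09 (SE, adjusted p = 0.0496) and that between metestrus and proestrus 1.09 (adjusted p = 9.18e-05). Across the 20 libraries the log2 levels of Slc35e4 and Dusp18 had a Pearson correlation of 0.924, as a description, since the mice share 4 stage means.

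Pdk4 encodes pyruvate dehydrogenase kinase 4, which switches off the entry of pyruvate into the citric acid cycle and is known to be induced by fasting and glucocorticoids. It was at 40.9, 45.7, 24.7, 42.2 and 52.1 FPKM at proestrus and at 103, 79.4, 75.3, 129 and 135 FPKM at metestrus. It was at 14.8, 29.4, 20.7, 18.3 and 33.2 FPKM at estrus and at 15.9, 57.7, 19.1, 26.2 and 37.3 FPKM at diestrus. Of the 3 genes it alone had both high stage means above both low stage means, and all 10 high-side mice were above the median of the low side. The proestrus mice still overlapped both low stages. The mean was 2.67 times as high on the high side (log2 difference 1.32 ± 0.21, SE, adjusted p = 0.0496), and metestrus exceeded proestrus by 1.32 (adjusted p = 0.0437). The largest p of the 4 pairs of a high with a low stage was 0.12, for proestrus against diestrus.

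**Figure D1:**
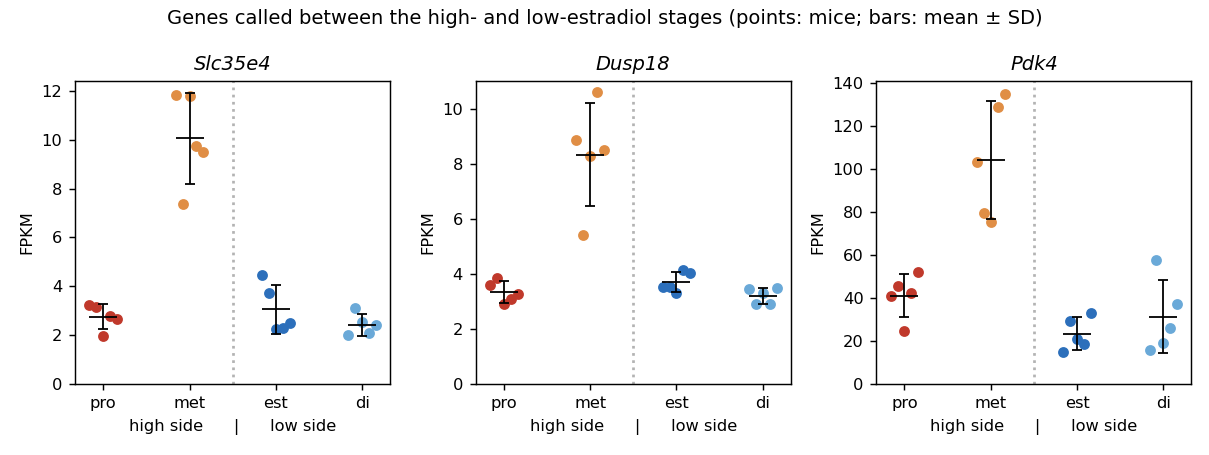
FPKM of Slc35e4, Dusp18 and Pdk4 in each mouse (points) by stage, with the stage mean and SD (bars, n = 5 mice). The metestrus mice lie above all others for Slc35e4 (7.37 to 11.8 FPKM), Dusp18 (5.43 to 10.6 FPKM) and Pdk4 (75.3 to 135 FPKM), and the proestrus mice overlap the low side in each panel.

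When each library was left out in turn, Slc35e4 passed in all 20 fits (adjusted p = 0.00116 to 0.0427), Pdk4 in 7 and Dusp18 in 3 (each up to 0.125). The log2 difference stayed between 1.22 and 1.44 for Pdk4 and between 0.47 and 0.57 for Dusp18. Dusp18 passed only without metestrus-2, metestrus-3 or diestrus-3. Without metestrus-1 and diestrus-5 the log2 differences of Slc35e4, Pdk4 and Dusp18 were 0.77, 1.36 and 0.51 (adjusted p = 0.11, 0.126 and 0.126). With the mean log2 level of the 14 luminal mammary markers as a covariate, Pdk4 and Dusp18 did not pass (adjusted p = 0.163 for both) and Slc35e4 did (0.0228), with log2 differences of 1.23, 0.51 and 0.85.

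The high stages differed from each other in more genes than the sides did. An F test of metestrus against proestrus and estrus against diestrus together called 79 of 13987 genes (0.565%), Slc35e4 and Dusp18 among them. Metestrus against proestrus alone called 123 genes (0.879%), 83 higher at metestrus and 40 lower. Estrus against diestrus called 0 by limma, with 850 at an unadjusted p under 0.05. Without proestrus-2 and metestrus-3 the F test called 137 genes, and without proestrus-2 alone 159. In 66 of the 79 genes metestrus was the highest stage (45 genes) or the lowest (21). Proestrus was the highest in 24 and the lowest in 30. Among the 79, 43 also had an unadjusted p under 0.05 between the sides, against 7.39% of all genes. Both high stages lay on the same side of both low stages in 1, against 31.1% of all genes. The 79 were picked by differences within a side. A high stage at the top or bottom, and few genes in this order, therefore follow in part from the choice. How often metestrus was highest or lowest over all genes was not counted.

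Over all tested genes both high stage means lay above both low ones in 1678 genes (12.0%) and below both in 2674 (19.1%), so that either order was found in 31.1%. The log2 difference between the sides was positive in 6058 of the 13987 genes and negative in 7929. Pairs of a high and a low stage that share no mouse were set against each other. Across genes the log2 change from estrus to proestrus and that from diestrus to metestrus had a correlation of -0.24, with the same sign in 44.0% of the genes. For the other such pairing, proestrus against diestrus and metestrus against estrus, the correlation was 0.09, with the same sign in 53.2%. These values are descriptions across genes, which are not independent replicates. Neither correlation was high, so a change at proestrus told little of the change at metestrus.

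**Figure D2:**
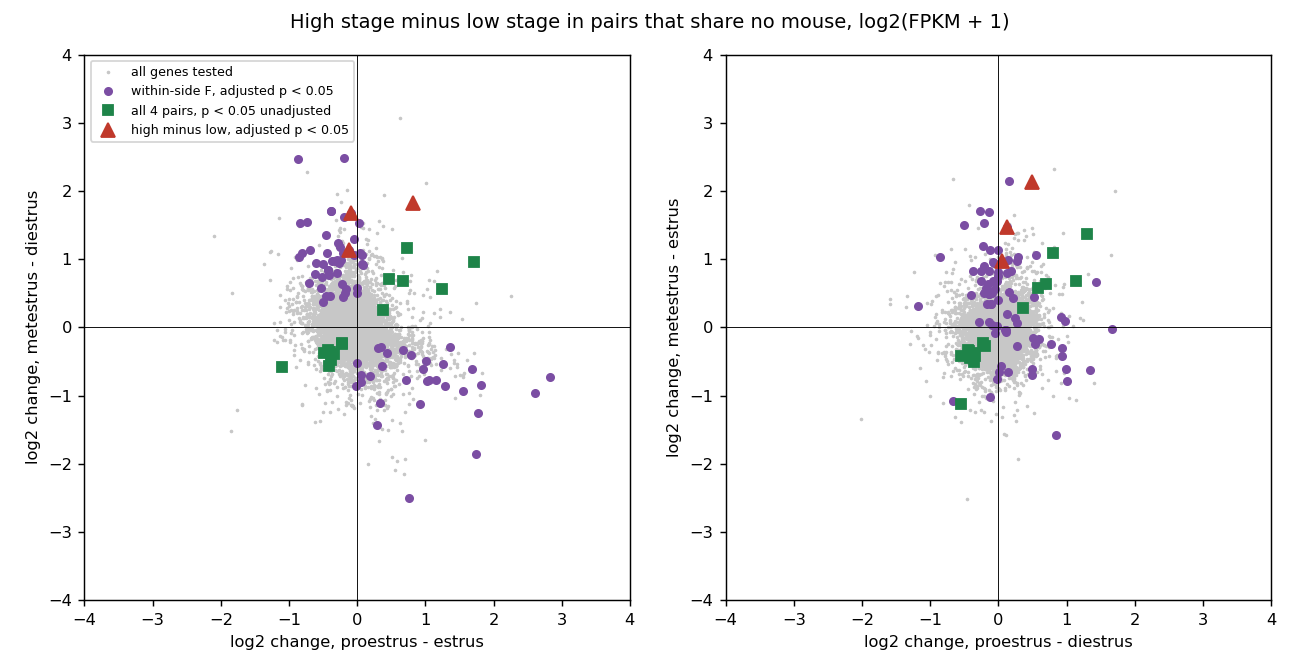
Log2 change of each gene from a low to a high stage in pairs that share no mouse, proestrus - estrus against metestrus - diestrus (left) and proestrus - diestrus against metestrus - estrus (right), for all 13987 genes tested (grey), the 79 genes called within a side (violet), the 16 with all 4 pairs at an unadjusted p under 0.05 (green) and the 3 called between the sides (red). Genes with the same sign on both axes agree, as all 16 green genes do. The correlation across genes is -0.24 on the left and 0.09 on the right.

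Genes with wide differences within the high side show what the average of the sides holds. Fkbp5, which encodes a chaperone partner of steroid receptors and is induced by glucocorticoids and progesterone, was at 2.34 to 7.91 FPKM at proestrus and at 17.6 to 40.4 FPKM at metestrus. The low side ran from 1.94 to 8.94 FPKM. All 5 metestrus mice lay above the other 15 mice, and the proestrus mice lay within the low side. The difference between the sides was 1.15 on the log2 scale (adjusted p = 0.128) and that between metestrus and proestrus was 2.33 (adjusted p = 0.00135). Cebpd, an early transcription factor of fat cell formation, had means of 5.54 FPKM at proestrus, 12.7 at metestrus, 5.50 at estrus and 5.53 at diestrus, and it too was higher at metestrus than at proestrus (log2 1.07, adjusted p = 0.0111). The same was found for Lpin1, a phosphatidate phosphatase of triglyceride synthesis (20.3 and 44.2 FPKM at proestrus and metestrus, adjusted p = 0.0088). Other examples, chosen after their values were seen, are Arrdc3 (10.9 and 37.1 FPKM, adjusted p = 0.00356), an alpha-arrestin, Fam107a (0.694 and 5.49 FPKM, adjusted p = 1.66e-04) and Mt1, a metallothionein (23.7 and 64.9 FPKM, adjusted p = 0.00814).

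Other genes were high at proestrus and lower at metestrus. Oxtr, the oxytocin receptor, which mammary myoepithelial cells and adipocytes express, was at 41.1 to 90.0 FPKM at proestrus and at 8.36 to 14.2 FPKM at metestrus. It was at 10.1 to 46.7 FPKM at estrus and at 33.1 to 48.7 FPKM at diestrus. Every proestrus mouse was above every metestrus mouse, and the low side lay between and across them. The sides differed by -0.06 on the log2 scale (adjusted p = 0.986), against -2.35 between metestrus and proestrus (adjusted p = 5.21e-04). Angptl8, a feeding-induced regulator of lipoprotein lipase, was at 14.0 ± 3.45 FPKM at proestrus, 3.19 ± 0.959 at metestrus, 25.3 ± 14.4 at diestrus and 8.11 ± 2.67 at estrus (SD, n = 5). Metestrus was lower than proestrus (log2 -1.84, adjusted p = 0.00688). Aoc1, the diamine oxidase that degrades histamine and a gene chosen after its values were seen, was at 3.70 to 9.65 FPKM at proestrus and at 0.0817 to 0.305 FPKM at metestrus (adjusted p = 3.57e-05). Its low side reached 3.04 FPKM. Tmem86a, a lysoplasmalogenase (32.7 FPKM at proestrus and 12.1 to 16.1 at the other stages), and Mmd2, a member of the progestin and adipoQ receptor family (10.3 FPKM at proestrus and 1.32 at metestrus), were also chosen after their values were seen, and both were lower at metestrus than at proestrus (adjusted p = 1.72e-04 and 0.00263). Their metestrus means lay between those of the low stages, and the log2 difference between the sides was 0.53 for Tmem86a (adjusted p = 0.126) and 1.05 for Mmd2 (0.173).

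No gene held all 4 pairs of a high with a low stage after adjustment. At an unadjusted p under 0.05 in each pair there were 16 genes (0.114%), 6 higher and 10 lower on the high side. Of the 16, 12 were also in this set without proestrus-2 and metestrus-3, when it had 81 genes, and 6 were without metestrus-1 and diestrus-5, when it had 10. Since none passed the test between the sides after adjustment, their values are given as levels. The 16 were picked by these p-values, so a separation of their sides follows in part from the choice. The higher genes were Fbxo31, Tph1, Rab3ip, Arl5b, the mitochondrial tRNA gene mt-Ti and the pseudogene Gm17834.

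Tph1 encodes the tryptophan hydroxylase that starts serotonin synthesis outside the brain. Its lowest, median and highest values were 0.527, 1.76 and 3.93 FPKM on the high side and 0.188, 0.556 and 0.908 FPKM on the low side. Of the 10 high-side mice, 9 were above every low-side mouse, and metestrus-3 was the exception. The margin was narrow, with proestrus-4 at 0.912 FPKM against 0.908 FPKM in diestrus-2, and both lay below 1 FPKM. Every low-side mouse was below 1 FPKM, so Tph1 passed the filter only through the high side. Its separation is therefore no independent support for a difference between the sides. The stage means were 2.72 FPKM at proestrus, 1.46 at metestrus, 0.50 at estrus and 0.614 at diestrus, a ratio of the side means of 3.75 (log2 difference 0.91 ± 0.17, SE, adjusted p = 0.0783). Without proestrus-2 and metestrus-3 the adjusted p was 0.0305.

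Fbxo31 encodes an F-box protein, the part of a ubiquitin ligase that holds its substrates. It was at 7.21, 10.4 and 13.9 FPKM (lowest, median and highest) on the high side and at 4.27, 6.41 and 8.94 FPKM on the low side, with 7 of 10 high-side mice above all of the low side. Its high stages were alike, at 9.94 ± 2.53 FPKM at proestrus and 10.8 ± 2.06 at metestrus (SD, n = 5), and so were its low stages, at 6.83 ± 1.02 (estrus) and 6.34 ± 1.88 FPKM (diestrus) (log2 difference between the sides 0.58 ± 0.13, SE, adjusted p = 0.141). Rab3ip, an exchange factor for the small GTPase Rab8, had means of 9.18, 8.59, 6.83 and 6.99 FPKM at proestrus, metestrus, estrus and diestrus. Arl5b, a small GTPase of the Golgi, had a mean of 1.88 FPKM on the high side and 0.353 on the low side. Single high-side mice, however, were as low as 0.220 FPKM. Every low-side mouse was below 1 FPKM, so Arl5b, like Tph1, passed the filter only through the high side.

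Among the lower genes Trhde, the ectoenzyme that degrades thyrotropin-releasing hormone, had little overlap between the sides. It was at 0.621, 1.04 and 1.37 FPKM (lowest, median and highest) on the high side and at 1.27, 1.64 and 2.77 FPKM on the low side, so that the sides shared only the span from 1.27 to 1.37 FPKM. The log2 difference was -0.48 ± 0.11 (SE, adjusted p = 0.141). Clock, a core transcription factor of the circadian clock, was at 2.69, 3.82 and 5.24 FPKM on the high side and at 4.18, 5.41 and 7.22 FPKM on the low side (log2 difference -0.39 ± 0.11, SE, adjusted p = 0.27). Hgf, the hepatocyte growth factor, had means of 1.02 and 1.62 FPKM on the high and the low side. Acvr2a, an activin receptor, had 5.15 and 6.90 FPKM, and Dse, an enzyme that makes dermatan sulfate, 10.01 and 13.8 FPKM. The others were Oxsm (5.38 and 6.43 FPKM), of mitochondrial fatty acid synthesis, Acbd5 (3.75 and 4.56 FPKM), a peroxisomal protein that binds acyl-CoA, the linker histone H1f0 (50.1 and 68.3 FPKM), the uncharacterized 2510009E07Rik and the long non-coding RNA Gm31378. Of the 21 promoters that RefSeq gives for 14 of the 16 genes, 6 held a core motif (28.6%) and 0 the full element.

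**Figure D3:**
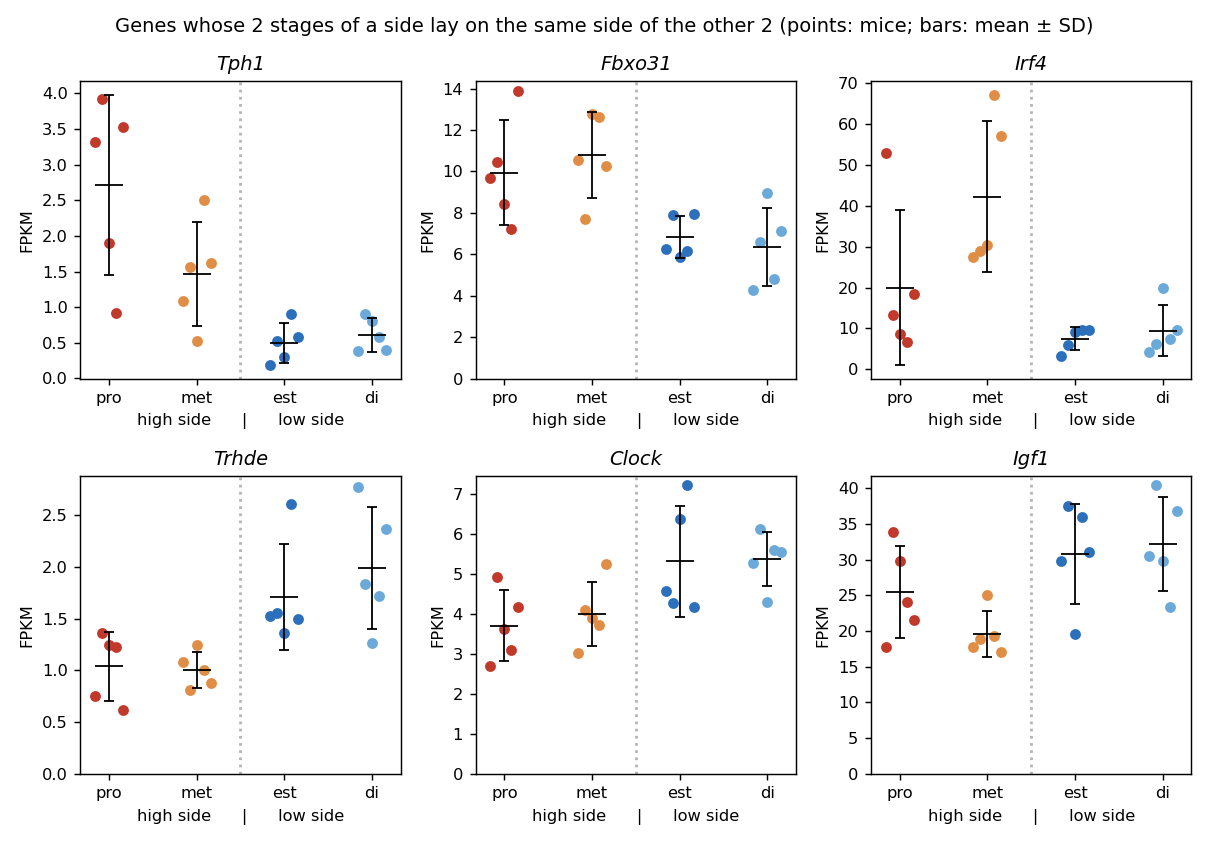
FPKM in each mouse (points) by stage, with stage mean and SD (bars, n = 5 mice), for 6 genes whose high stage means both lie on the same side of the low ones. Tph1, Fbxo31 and Irf4 are higher at proestrus and metestrus (Tph1 0.527 to 3.93 against 0.188 to 0.908 FPKM), Trhde, Clock and Igf1 are lower (Trhde 0.621 to 1.37 against 1.27 to 2.77 FPKM), and the sides overlap in each panel.

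Several further genes had agreeing stages and small p-values between the sides without reaching 0.05 in every pair, and those without another reason given were chosen after their values were seen. Tgm2, transglutaminase 2, an enzyme that cross-links proteins, was at 73.6 to 152 FPKM on the high side and at 40.2 to 98.5 FPKM on the low side, and all 10 high-side mice exceeded the low-side median (log2 difference 0.74 ± 0.14, SE, adjusted p = 0.0783). Gpx3, the secreted glutathione peroxidase, had means of 1300.0 FPKM at proestrus, 696 at metestrus, 388 at estrus and 559 at diestrus (log2 1.05 ± 0.21, adjusted p = 0.127). When each library was left out in turn, each passed in 1 of 20 fits, Tgm2 without estrus-1 (adjusted p = 0.0109, up to 0.222 in the others) and Gpx3 without diestrus-3 (0.0426, up to 0.274). Irf4, a transcription factor that restrains lipid storage in adipocytes and is used by lymphocytes too, was at 6.75, 28.3 and 67.2 FPKM (lowest, median and highest) on the high side and at 3.25, 8.25 and 20.0 FPKM on the low side. Its largest values came from proestrus-1, metestrus-4 and metestrus-5, and its log2 difference of 1.57 (adjusted p = 0.128) was 1.54 with the lymphocyte markers as a covariate (adjusted p = 0.0784). Slc25a33, a mitochondrial carrier of pyrimidine nucleotides, had means of 11.2 and 6.57 FPKM (adjusted p = 0.0783), and Gadd45g, a stress response gene, 27.2 and 15.1 FPKM (adjusted p = 0.141). Pik3r1, the regulatory subunit of the kinase downstream of the insulin receptor, had 26.6 FPKM on the high side and 39.5 on the low side (adjusted p = 0.179). Cebpb, an adipogenic transcription factor, was named for its small p-values across the pairs. It was at 25.6 to 42.5 FPKM on the high side and 16.6 to 31.7 on the low side (log2 0.58 ± 0.12, adjusted p = 0.128). Ankrd9 and Gdpd1 had adjusted p of 0.0603 and 0.0735 between the sides, but like Slc35e4 they took these from metestrus (2.66 FPKM against 0.858 at proestrus for Ankrd9, and 7.53 against 3.18 for Gdpd1, whose proestrus mean lay below that of estrus).

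Of 30 genes known to be induced by estrogen in the mammary gland, uterus or breast cancer cells, 24 passed the filter and 0 of these passed the test between the sides. Members of this and the later lists were chosen with earlier results of these data known, so the shares of a list are descriptions. At an unadjusted p under 0.05, 5 were higher and 1 was lower, which is 6 of 24 against 7.39% of all genes tested. The median log2 difference of the list was 0.04, against -0.02 over all genes. Both high stages lay above both low ones in 3 members (12.5%, against 12.0% of all genes) and below in 2 (8.33%, against 19.1%). Krt19, a keratin of luminal mammary cells, was at 68.3, 149 and 201 FPKM (lowest, median and highest) on the high side and at 58.3, 102 and 129 FPKM on the low side. Of the 10 high-side mice 9 lay above the low-side median, and metestrus-3 was lowest (log2 difference 0.55 ± 0.19, SE, unadjusted p = 0.00794, adjusted p = 0.425). Stc2, a secreted regulator of growth factor processing, had means of 25.6, 25.7, 18.5 and 20.4 FPKM at proestrus, metestrus, estrus and diestrus (unadjusted p = 0.0166). Wnt4 (means of 5.98 and 4.48 FPKM on the high and low side), a paracrine signal of the mammary gland, and Fkbp4 (43.7 and 38.3 FPKM), a co-chaperone of steroid receptors, also had unadjusted p under 0.05, at 0.0203 and 0.025.

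Areg and Pgr, the classical estrogen targets of mammary epithelium, were high at 1 of the 2 high stages. Areg, which encodes amphiregulin, was at 106, 74.7, 75.03, 57.8 and 133 FPKM at proestrus, but at 32.4, 94.7, 27.8, 54.3 and 35.5 FPKM at metestrus, where the low side ran from 33.5 to 62.1 FPKM. Proestrus lay above nearly all of the low side and metestrus across it, with metestrus-2 as the exception (log2 difference between the sides 0.41 ± 0.19, SE, unadjusted p = 0.0459, adjusted p = 0.657). Pgr, the progesterone receptor, was at 6.51 to 19.2 FPKM at proestrus, 4.35 to 8.04 at metestrus, 2.99 to 7.32 at estrus and 5.19 to 9.43 at diestrus. Of the 10 high-side mice 6 were above the low-side median (log2 0.34 ± 0.18, adjusted p = 0.755). Igf1, insulin-like growth factor 1, which estrogen induces in the uterus, was the member in the other direction, at 16.98, 20.4 and 33.8 FPKM on the high side and 19.6, 30.8 and 40.5 FPKM on the low side (log2 -0.47 ± 0.13, unadjusted p = 0.00219, adjusted p = 0.278). Only 1 of the 10 high-side mice was above the low-side median. Greb1, a sensitive estrogen target in human breast cancer cells, was below the filter, at 0.00828 to 0.622 FPKM on the high side and 0.0126 to 0.257 on the low side.

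**Figure D4:**
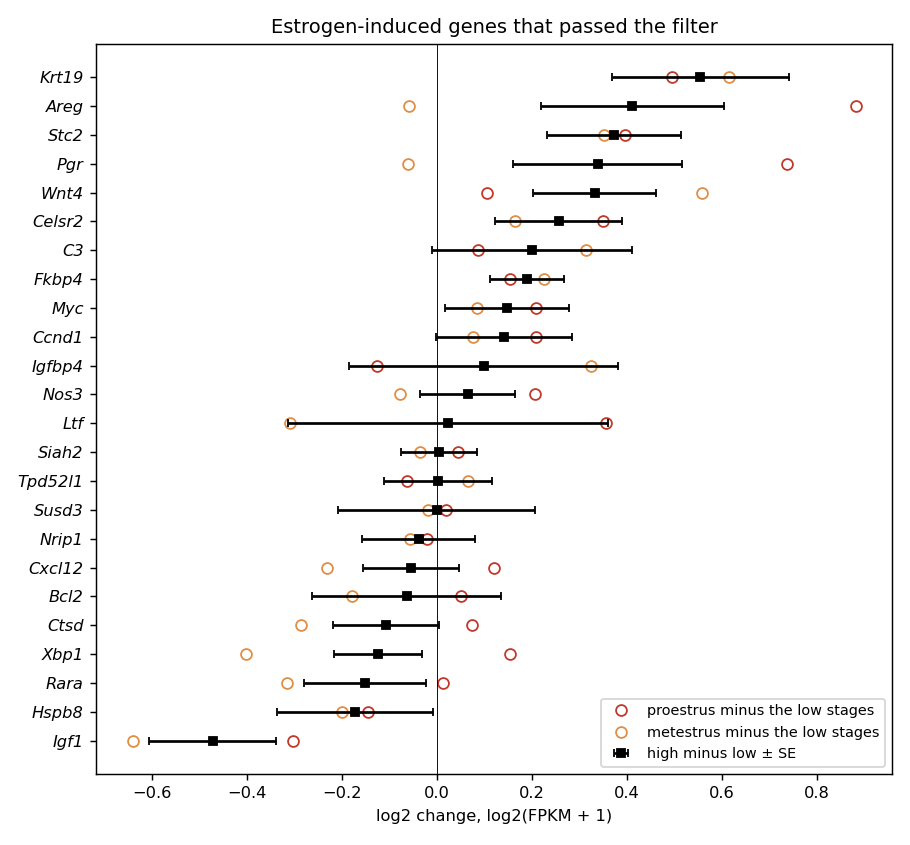
Log2 difference between the sides (squares, with SE) for the 24 estrogen-induced genes that passed the filter, with proestrus and metestrus each set against the mean of the low stages (open circles). Krt19 has the highest difference (0.55) and Igf1 the lowest (-0.47), and for Areg and Pgr the proestrus circle lies far to the right of the metestrus circle.

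The luminal mammary markers themselves leaned to the high side. All 14 had a positive log2 difference, against 6058 of 13987 genes, the smallest being 0.00328 for Csn3, with a median of 0.26. At an unadjusted p under 0.05 there were 3 (21.4%, against 7.39% of all genes), and 0 passed after adjustment. Cldn7, a claudin of epithelial junctions, was at 5.28 FPKM on the high side and 3.86 on the low side (unadjusted p = 0.00518). Cited1, a coactivator of the estrogen receptor in luminal cells, differed within the high side, at 4.07 FPKM at proestrus and 14.7 at metestrus (adjusted p = 0.00688). The summed FPKM of the 14 markers ran from 257 to 774 on the high side, with metestrus-3 lowest, and from 322 to 552 on the low side. With these markers as a covariate the log2 difference was 0.25 for Krt19, which is 1 of them, 0.26 for Areg, 0.15 for Wnt4 and 0.20 for Stc2. Other epithelial genes of the kind, Lsr (6.61 and 4.76 FPKM) and Cldn8 (8.79 and 6.09 FPKM on the high and low side), were named for small p-values across the pairs. The 10 basal mammary markers had a median of -0.03, with 2 positive and 8 negative differences.

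Of 23 steroid receptors and coregulators 17 passed the filter, with a median log2 difference of -0.06. None passed the test, and 0 were higher and 2 lower at an unadjusted p under 0.05 (11.8%, against 7.39% of all genes). Both high stages lay below both low ones in 6 (35.3%, against 19.1% of all genes) and above them in 0 (against 12.0%). Nr3c1, the glucocorticoid receptor, was at 18.2, 26.2 and 34.5 FPKM (lowest, median and highest) on the high side and at 26.6, 33.0 and 37.0 FPKM on the low side. Only 1 of 10 high-side mice was above the low-side median (log2 -0.38 ± 0.10, SE, unadjusted p = 8.65e-04, adjusted p = 0.247). Esr1 was at 5.59 ± 2.53 FPKM at proestrus, 6.76 ± 0.714 at metestrus, 7.99 ± 0.747 at estrus and 6.39 ± 1.83 at diestrus (SD, n = 5, log2 difference between the sides -0.23 ± 0.17, SE, adjusted p = 0.876). Esr2, the second estrogen receptor, was listed at 0 in 12 of the 20 libraries and reached 0.0615 FPKM at most.

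Of the enzymes that make or remove estradiol, Cyp19a1, the aromatase that makes estrogens, and Sult1e1, the sulfotransferase that inactivates them, were each listed at 0 in 19 of 20 libraries. Of 15 converting enzymes 8 passed the filter and 0 passed the test. Hsd17b11, a dehydrogenase of 17β-hydroxysteroids on lipid droplets, had means of 19.0, 24.2, 20.1 and 17.7 FPKM at proestrus, metestrus, estrus and diestrus (unadjusted p = 0.0263). Hsd17b8 (13.1 and 11.4 FPKM on the high and the low side) had the agreeing order of stages, and Hsd17b7 (1.98 and 2.48 FPKM), which takes part in both estradiol and cholesterol synthesis, did not.

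Glucocorticoid-responsive genes formed the list with the most members at an unadjusted p under 0.05, and Pdk4 belongs to it. As the lists were chosen with earlier results of these data known, this rank is no independent support for a glucocorticoid response. All 15 had a positive log2 difference (median 0.56), 11 were at an unadjusted p under 0.05 (73.3%, against 7.39% of all genes) and 1, Pdk4, passed after adjustment. Yet 1 of the 15 had both high stages above both low ones (6.67%, against 12.0% of all genes). Against the low stages the median was -0.05 for proestrus and 1.20 for metestrus. After adjustment over all genes, 11 of the 15 were higher at metestrus than at proestrus, against 83 of all 13987 genes. Fkbp5 and Cebpd, given above, are members, and Pdk4 was the member with the agreeing order. Of 9 progesterone-responsive genes tested, 4 were higher at an unadjusted p under 0.05 (44.4%, against 3.15% of all genes) and 0 passed after adjustment. The agreeing order was found in 2 (22.2%, both higher, against 12.0% of all genes). After adjustment 2 were higher at metestrus than at proestrus, against 83 of all 13987 genes. Fkbp5 is in both lists.

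**Figure D5:**
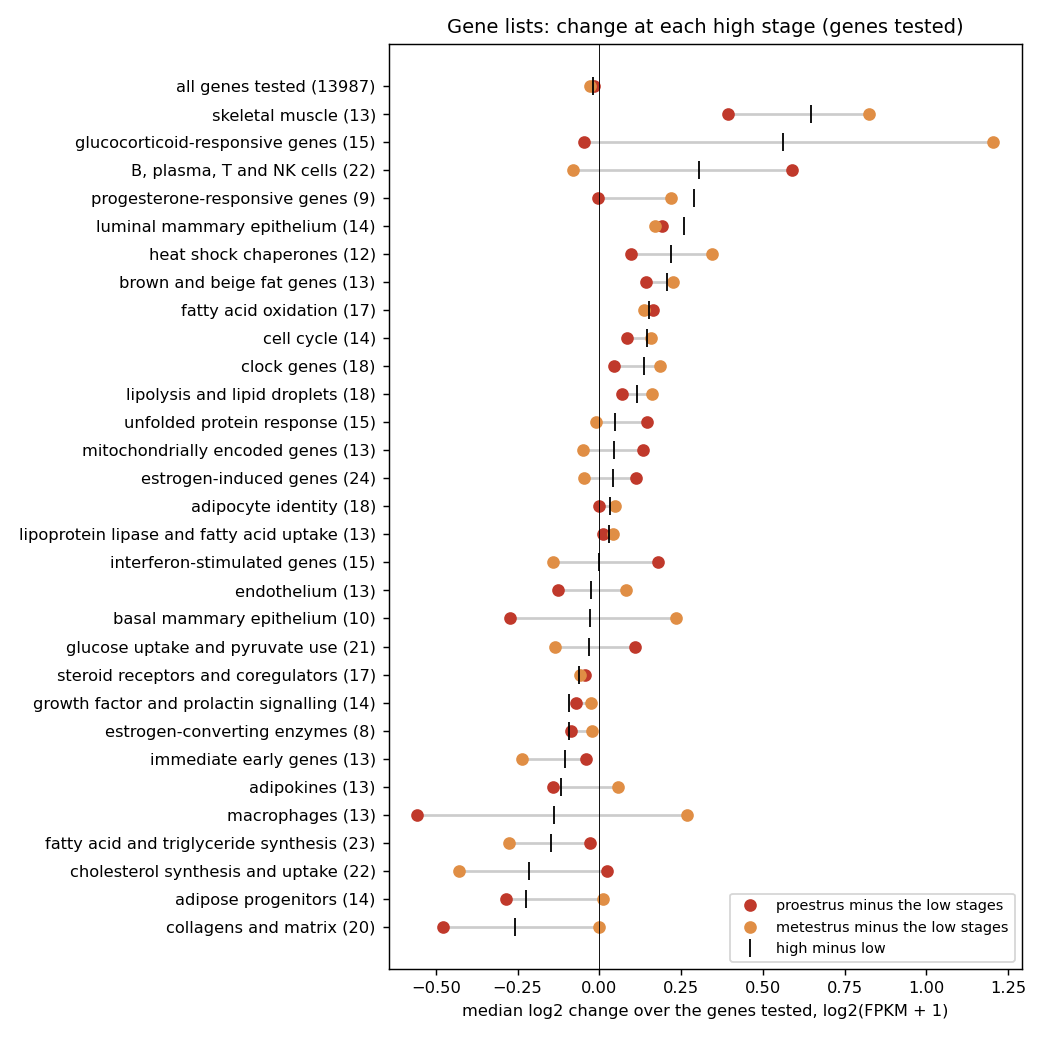
Median log2 change over the tested members of 30 gene lists and over all genes, for proestrus (red) and metestrus (orange) each against the mean of the low stages, with the difference between the sides as a black tick and the number of genes tested in brackets. The 2 high stages are close together for fatty acid oxidation and the luminal mammary list and far apart for glucocorticoid-responsive genes (-0.05 and 1.20), macrophages (-0.56 and 0.27) and lymphocytes (0.59 and -0.08).

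Of 17 genes of fatty acid oxidation 16 had a positive difference (median 0.15), 7 had both high stages above both low ones (41.2%, against 12.0% of all genes) and 0 passed the test, with 2 at an unadjusted p under 0.05 (11.8%). Slc25a20, the carnitine-acylcarnitine carrier, had means of 20.0 and 14.8 FPKM on the high and the low side (unadjusted p = 0.00616) and Acadl, the long-chain acyl-CoA dehydrogenase, 181 and 152 FPKM (unadjusted p = 0.0458). Plin5, a lipid droplet coat protein of oxidative cells, was at 3.77, 6.13 and 9.85 FPKM (lowest, median and highest) on the high side and 2.14, 3.30 and 5.91 FPKM on the low side. All 10 high-side mice were above the low-side median, and 5 were above every low-side mouse (log2 0.73 ± 0.17, SE, unadjusted p = 4.72e-04, adjusted p = 0.222). Pdk2, a further kinase of pyruvate dehydrogenase, had means of 24.7, 35.8, 21.1 and 19.9 FPKM in the order proestrus, metestrus, estrus and diestrus.

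Of 13 brown and beige fat genes that passed the filter, 10 had a positive difference (median 0.21), against 6058 of 13987 genes. Both high stages lay above both low ones in 6 (46.2%, against 12.0% of all genes), and 0 passed the test. Ppara, a nuclear receptor that drives fatty acid oxidation, was at 2.56 FPKM at proestrus and 6.20 at metestrus, against 2.37 and 2.34 at estrus and diestrus, and metestrus was higher than proestrus (adjusted p = 0.0391). Dio2, which activates thyroid hormone in brown fat, was at 0.378 to 1.17 FPKM at proestrus and at 0.0722 to 9.30 FPKM at metestrus. On the low side it was at 0.101 to 0.736 FPKM, which the proestrus mice overlapped. Only high-side mice reached 1 FPKM, so Dio2 passed the filter through that side alone. Ucp1, the uncoupling protein of brown fat, varied widely within every stage. Its lowest, median and highest values were 0.0264, 6.62 and 38.6 FPKM on the high side and 0, 2.64 and 7.77 FPKM on the low side (log2 0.90 ± 0.60, SE, adjusted p = 0.855). Cox8b, a subunit of cytochrome c oxidase in muscle and brown fat, had means of 102 and 76.6 FPKM.

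Among 18 genes of lipolysis and lipid droplets the median difference was 0.12. At an unadjusted p under 0.05, 3 were higher and 1 lower (22.2%, against 7.39% of all genes), with 0 past adjustment. Adrb3, which starts lipolysis in mouse adipocytes in answer to noradrenaline, was at 53.8, 25.9, 65.9 and 53.5 FPKM at proestrus, metestrus, estrus and diestrus (unadjusted p = 0.0283), and metestrus was the lowest stage. Pck1, the enzyme of glyceroneogenesis, was at 251, 650.4 and 1242 FPKM (lowest, median and highest) on the high side and at 83.3, 369 and 513 FPKM on the low side, with 6 high-side mice above the whole low side (log2 1.17 ± 0.30, SE, unadjusted p = 0.00109, adjusted p = 0.256). Cidec, a fat droplet protein named after its values were seen, was at 567, 916, 717 and 466 FPKM at proestrus, metestrus, estrus and diestrus. Lep, the gene of leptin, was at 38.0, 55.0 and 149 FPKM on the high side and at 55.0, 105 and 608 FPKM on the low side, where estrus-1 held the highest value (log2 -0.81, adjusted p = 0.646, and -0.54 without estrus-1). Angptl4, an inhibitor of lipoprotein lipase, had means of 59.3 and 41.3 FPKM on the high and low side and Lpl itself 548 and 614 FPKM (adjusted p = 0.567 and 0.966).

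Lipid synthesis had lower medians on the high side, but by metestrus and diestrus rather than by both stages of a side. The 23 genes of fatty acid and triglyceride synthesis had a median of -0.15, with 18 negative differences and 0 genes in the agreeing order. Against the low stages the median was -0.03 at proestrus and -0.28 at metestrus. Elovl6, a fatty acid elongase, was at 113 FPKM at proestrus, 43.5 at metestrus, 68.1 at estrus and 180.2 at diestrus, and Acaca, the acetyl-CoA carboxylase, at 128, 68.7, 89.0 and 193 FPKM. Thus estrus lay below proestrus for both. For the 22 genes of cholesterol synthesis and uptake the median was -0.21, with 20 negative differences. At an unadjusted p under 0.05 there were 5, all lower (22.7%, against 4.24% of all genes), and 0 past adjustment. Their median was 0.03 at proestrus and -0.43 at metestrus against the low stages. Sc5d, a late step of the pathway, had the agreeing order (30.6, 21.8, 34.7 and 43.0 FPKM at proestrus, metestrus, estrus and diestrus, unadjusted p = 0.00234), while Nsdhl, a further enzyme of it (17.1, 11.8, 13.9 and 23.4 FPKM), did not.

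All 20 collagen and matrix genes had a negative difference (median -0.26), 0 were at an unadjusted p under 0.05 and 5 had both high stages below both low ones, a share near the 19.1% of all genes. The median against the low stages was -0.48 at proestrus and -0.002 at metestrus. Fbn1, the microfibril protein fibrillin 1, had means of 6.86 and 9.88 FPKM on the high and the low side and the basement membrane collagen Col15a1 21.9 and 36.3 FPKM, with up to 94.5 FPKM in 1 low-side mouse. The adipose progenitor markers followed (median -0.22, 12 of 14 negative), and their summed FPKM was 260.0 to 848 on the high side and 433 to 943 on the low side. The part of these cells in the matrix values was not tested.

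Of 12 heat shock chaperones all had a positive difference (median 0.22), against 6058 of 13987 genes. Both high stages lay above both low ones in 6 (50%, against 12.0% of all genes). At an unadjusted p under 0.05 there were 5, all higher (41.7%, against 3.15% of all genes), and 0 passed after adjustment. This list too was chosen with earlier results of these data known. Hspb1, a small heat shock protein, was at 26.5, 43.4, 25.4 and 24.8 FPKM at proestrus, metestrus, estrus and diestrus, and Hspa8, the constitutive chaperone of the cytosol, at 162, 252, 149 and 188 FPKM. Herpud1, of the unfolded protein response, was at 19.2, 28.4, 20.4 and 15.8 FPKM. Metestrus was the highest stage in each.

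In growth factor and prolactin signalling, a list also chosen with earlier results known, 7 of 14 genes were at an unadjusted p under 0.05, against 7.39% of all genes. Of these 2 were higher and 5 lower, and 0 passed after adjustment. Stat5a, which carries the prolactin signal to the nucleus, was at 14.97 FPKM at proestrus, 10.4 at metestrus, 9.64 at estrus and 10.3 at diestrus (unadjusted p = 0.00346). Igfbp3, a carrier of insulin-like growth factors, was at 8.71, 14.99, 16.8 and 13.1 FPKM. Of the clock genes Bhlhe40, a repressor of the loop, was at 10.5, 6.02, 13.8 and 13.4 FPKM. Like Clock, it had both high stages below both low ones. Per1, which light and glucocorticoids induce, was at 8.16, 11.8, 9.13 and 5.97 FPKM. The list of 18 as a whole had 1 gene higher and 2 lower at an unadjusted p under 0.05.

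The markers of other tissue gave no gene past the test. The 13 skeletal muscle genes had a median of 0.65 with 0 at an unadjusted p under 0.05. Both high stages lay above both low ones in 11 (84.6%, against 12.0% of all genes), with metestrus-3 alone at 9471 FPKM in sum. The 22 lymphocyte genes had a median of 0.30, with 0.59 at proestrus and -0.08 at metestrus against the low stages. Of the 13 macrophage genes 11 were negative (median -0.14), and Mertk, a receptor for the uptake of dying cells, was higher at metestrus (11.1 FPKM) than at proestrus (4.71 FPKM, adjusted p = 0.0126).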

How the data were processed

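The values used are FPKM of each gene in each library, as deposited by the authors. The study's methods name trimming with Skewer, alignment to GRCm38 with STAR and counting with HTSeq, and the submitters' notes on processing list FastQC 0.11.5, STAR 2.5.3a and StringTie 1.3.1c, with hg38 listed beside GRCm38. The maker of the FPKM values and the annotation release are not given in sources used here. Of 35841 genes 35766 were found in GENCODE M21, which gave names and coordinates, and 75 were not. Read counts were not used, so depth is not known from the table. The FPKM of a library summed to 373659 to 452647. FPKM are relative to the mapped total of a library, so a large change in some genes shifts the others. In the 190 pairs of libraries at most 0.0302% of genes held equal values.

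FPKM were taken to log2(FPKM + 1), and genes reaching 1 FPKM in 5 or more libraries were kept. One linear model with a mean per stage was fitted to the 20 libraries, each from a separate mouse, in limma 3.58.1 (R 4.3.3) with a trend in the empirical Bayes step. Contrasts were the mean of proestrus and metestrus minus that of estrus and diestrus, an F test of both within-side differences, and the largest p of the 4 cross-side pairs of stages, each adjusted by Benjamini-Hochberg over all genes at 0.05. The fit was tested on simulated data. The 30 gene lists hold 462 genes, of which 425 were tested. Members and lists were chosen with earlier results of these data known.

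The text names up to 15 genes that rose and 15 that fell, up to 10 in each direction with the smallest largest p of the 4 pairs, up to 10 called genes with the smallest F p, for each list the 3 members (at most) of lowest p, and a fixed set of receptor, adipocyte and mammary genes, leaving out predicted models, Rik and clone names. Not all are printed, and some are not reported here. Genes chosen after their values were seen are so named, and Greb1, Esr2, Cyp19a1, Sult1e1 and Csn3 were also named outside this rule. Alternatives were other pseudocounts and filters, 2 other scalings, array weights, no trend, a replicate block, covariates, 1 mean per side, no mitochondrial genes, and leaving out libraries. Promoters were taken from RefSeq and figures drawn in Python 3.11.15 with matplotlib 3.10.9.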

Additional observations from a re-analysis of the deposited data

Results flagged for a closer look

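In 88 sets of 5 mice (22 genes at 4 stages) a single mouse far from the other 4 was found 4 times, and chance gives about 1 in 20. Trhde was 2.61 FPKM in estrus-4, against 1.36 to 1.56 FPKM in the other estrus mice. Aoc1 was 0.569 FPKM in estrus-1, against 0.0931 to 0.109 FPKM. Krt19 was 68.3 FPKM in metestrus-3, the mouse with the high muscle genes, against 154 to 201 FPKM in the other metestrus mice. Pck1 was 207 FPKM in estrus-3, against 356 to 442 FPKM.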

How the results depend on the processing

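The counts moved with the processing, and the cause was not tested. The 3 genes called between the sides became 1 with no filter, 1 with each library scaled to the same total, 0 with mitochondrial genes left out and the rest rescaled, 0 with 1 mean per side and no stages, 5 with the lymphocyte markers as a covariate, 30 without proestrus-2 and metestrus-3, 0 without metestrus-1 and diestrus-5, and 135 with array weights. Leaving out 1 library in turn gave 1 to 11 (11 without diestrus-3, and 8 without metestrus-2 or metestrus-3). The 79 genes of the within-side test became 546 with array weights, 38 without metestrus-1 and diestrus-5, 137 without proestrus-2 and metestrus-3 and 132 with the lymphocyte covariate, and 38 to 159 when 1 library was left out. The 16 genes with all 4 pairs at an unadjusted p under 0.05 became 78, 10 and 81 with array weights and without those pairs of mice, and 5 to 47 when 1 library was left out. After adjustment this count was 0 in every fit that gave it. Of the genes at an unadjusted p under 0.05, 42.6% were higher on the high side, against 23.8% with an equal total and 23.0% without mitochondrial genes.

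With the replicate block the within-side test called 37 genes and the test between the sides 4, but the numbers do not pair the mice. Same-numbered mice had a mean correlation of -0.08 in their deviations from the stage means, and 1 of 20 libraries was closest to its own number.

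Of 79 named genes 78 had the same sign between the sides in every alternative that could be fitted to them. Many of these genes were chosen by their p-values in these data, and most alternatives left out only 1 library. A stable sign was therefore largely given in advance. Oxtr, at -0.06, was -0.14 to 0.12 when 1 library was left out, with the sign turned at 0.00493 without proestrus replicate 1 (adjusted p = 0.99977) and 0.12 without estrus replicate 1 (0.944). With 5 mice per stage, the median SE of the difference between the sides was 0.11 on the log2 scale. This SE is no limit of detection. Differences several times as large as their SE, such as those of Fbxo31, Tgm2 and Tph1, did not pass after adjustment. Genes that were not called may therefore still differ between the sides.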
